A study of Mus musculus with 289 samples.

Results

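The genes described here encode 9 subunits of Polycomb repressive complex 1 (PRC1), the complex whose ubiquitin ligase activity is the target of the inhibitor PRT4165. They were taken by symbol, whatever their values: Ring1, Rnf2, Bmi1, Pcgf3, Pcgf5, Pcgf6, Cbx7, Phc2 and Rybp. All 9 were rows of the deposited count table, which held 15019 genes. They are described per plate and per cell, for detection, level, use of related genes and detection in the same cell.

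PRC1 attaches ubiquitin to histone H2A through RING1A (gene Ring1) or RING1B (gene Rnf2), each paired with 1 of several PCGF proteins that decide which other subunits join. Canonical complexes hold PCGF2 or BMI1 with a CBX protein, which reads the methyl mark left by Polycomb repressive complex 2, and a PHC protein, which can polymerize. Variant complexes hold RYBP or YAF2 in place of the CBX protein and are known for depositing most of the H2A ubiquitin in cells where this was measured. In the epidermis, PRC1 is known for keeping genes of other lineages silent.

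The mice carried Lrig1-EGFP-ires-CreERT2 and Rosa26-fl/STOP/fl-tdTomato on a mixed CBA and C57BL/6 background, and only females were used for the single-cell experiments. Hydroxytamoxifen was put on the tail skin once in every mouse, so cells that expressed Lrig1 at that moment, and their later descendants, carry the red reporter. Unwounded skin was then treated repeatedly with PRT4165 or with vehicle, reporter-positive cells were sorted at the time labelled t0, and each cell was sequenced as full-length cDNA by Smart-seq2. The 289 cells lay on 4 plates, 2 of vehicle and 2 of PRT4165, with 1 plate of each treatment in each of the labelled batches, replicate 1 and replicate 2.

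The Cre is driven from the Lrig1 locus, so the label covers descendants of several positions of the hair follicle rather than 1 cell type. The mice were young adults when labelled. The study describes its single-cell data as coming from independent experiments with several biological replicates each, but how these animals were spread over the plates was not given in the sources used here. Within a batch there was 1 plate per treatment, so a difference between plates and one between treatments cannot be told apart there. The treatment labels also carry a code that differs between vehicle and PRT4165 and is not explained.

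After removing 15 cells with more than 50% mitochondrial counts, 274 cells remained: 70 and 55 cells with vehicle and 72 and 77 with PRT4165. Median counts per cell ranged from 141985 on vehicle replicate 1 to 538754 on PRT4165 replicate 2, and the median number of genes from 3084.5 to 3903 on the same plates. All 6 basal keratinocyte markers had counts on every plate, with summed levels of 1565 to 3594 counts per 1e6 counts (CPM). Of 5 immune markers 1 was in the table, at no more than 1.11 CPM. The 4 fibroblast markers summed to 7.25 to 84.3 CPM, of 4 melanocyte markers 2 were in the table and summed to 0.699 to 5.03 CPM, and of 3 endothelial markers only Pecam1 was, at 210.2 to 608.9 CPM.

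The paralogs Ring1 and Rnf2 had to be told apart by 75-base reads, so their closest stretch is shown. Between the longest protein-coding transcripts of the pair (GENCODE M21, GRCm38), the longest identical run was 14 bases, shown in capitals inside 60 bases of coding sequence from each gene, 5′ to 3′ on the transcript strand.
Ring1, exon 6, chr17:34021691-34021750, minus strand: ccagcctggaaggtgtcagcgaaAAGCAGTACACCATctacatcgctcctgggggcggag
Rnf2, exon 7, chr1:151471646-151471705, minus strand: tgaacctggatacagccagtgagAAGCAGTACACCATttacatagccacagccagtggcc
None of the 31-base words in the transcript of either gene occurred in a transcript of another gene. The same held for Pcgf5, Pcgf6 and Phc2.

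The other members lie on GRCm38 at chr2:18677018-18686629 (Bmi1), chr5:108461232-108506976 (Pcgf3), chr19:36348309-36460970 (Pcgf5), chr19:47033617-47050906 (Pcgf6), chr15:79915807-79971119 (Cbx7), chr4:128654702-128752881 (Phc2) and chr6:100228565-100287485 (Rybp). Some of these share sequence with other genes. Of the 31-base words of Bmi1, 31.1% also occurred in other genes, mainly the pseudogene Gm5946, and of those of Rybp 11.4% did, mainly in Rybp-ps. Neither pseudogene was a row of the count table used here, so how reads of these stretches were assigned cannot be seen from it. For Cbx7 the share was 1.995%, with Apobec3, which overlaps it on the other strand, and for Pcgf3 it was 0.300%. Rnf2 overlaps Trmt1l and Pcgf5 overlaps an antisense gene, in each case on the other strand, and the library protocol does not mark strand.

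Detection was measured as the share of cells with an estimated count above 0. Values of the plates are given in the order replicate 1, replicate 2, vehicle before PRT4165. The 9 genes were found in 4.01% (Cbx7) to 25.2% (Pcgf5) of the 274 cells, with a median of 16.8% beside 14.96% over all 15019 genes. These are sparse data, so a cell without a count is a cell in which the gene was not detected at its depth, not one that lacks the transcript.

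Ring1, which encodes the catalytic subunit RING1A, was detected in 5 of 70 cells on vehicle replicate 1 (7.14%), 14 of 55 on vehicle replicate 2 (25.5%), 7 of 72 on PRT4165 replicate 1 (9.72%) and 8 of 77 on PRT4165 replicate 2 (10.4%). The vehicle plates thus lay on either side of both PRT4165 plates. Where it was detected, the signal was slight: the median was 3 counts, and 73.5% of the 34 cells with a count had fewer than 5.

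Rnf2, which encodes the catalytic subunit RING1B, was detected in 12 of 70 (17.1%) and 13 of 55 (23.6%) cells with vehicle and in 17 of 72 (23.6%) and 26 of 77 (33.8%) on the PRT4165 plates. Vehicle replicate 2 and PRT4165 replicate 1 had nearly the same share and the other plates lay to either side. Its median was 11 counts in the 68 cells with a count, and 47 of them had at least 5.

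Of the 4 PCGF genes described here, Bmi1, a PCGF subunit of canonical PRC1, was the least often detected, in 5 and 7 cells on the vehicle plates (7.14% and 12.7%) and in 7 and 11 on the PRT4165 plates (9.72% and 14.3%). Pcgf3, of a variant complex, was detected in 14 and 17 cells with vehicle (20% and 30.9%) and in 18 and 16 with PRT4165 (25.0% and 20.8%). Pcgf5, which forms a closely related variant complex, was detected in 17 and 18 cells with vehicle (24.3% and 32.7%) and in 20 and 14 with PRT4165 (27.8% and 18.2%). The treatments overlapped for each of these. Pcgf6, of the variant complex that also holds MGA and L3MBTL2, was detected in 12 and 11 cells with vehicle (17.1% and 20%) and in 13 and 19 with PRT4165 (18.1% and 24.7%), also overlapping.

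Cbx7, a chromodomain subunit of canonical PRC1, was detected in 2 and 1 cells with vehicle (2.86% and 1.82%) and in 5 and 3 with PRT4165 (6.94% and 3.90%). Phc2, a polyhomeotic subunit, was detected in 11 and 8 cells with vehicle (15.7% and 14.5%) and in 9 and 10 with PRT4165 (12.5% and 13.0%). Rybp, which takes the place of a CBX protein in variant complexes, was detected in 7 and 6 cells with vehicle (10% and 10.9%) and in 14 and 19 with PRT4165 (19.4% and 24.7%). For these 3 genes the plates of the treatments did not overlap, higher with PRT4165 for Cbx7 and Rybp and lower for Phc2.

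**Figure D1:**
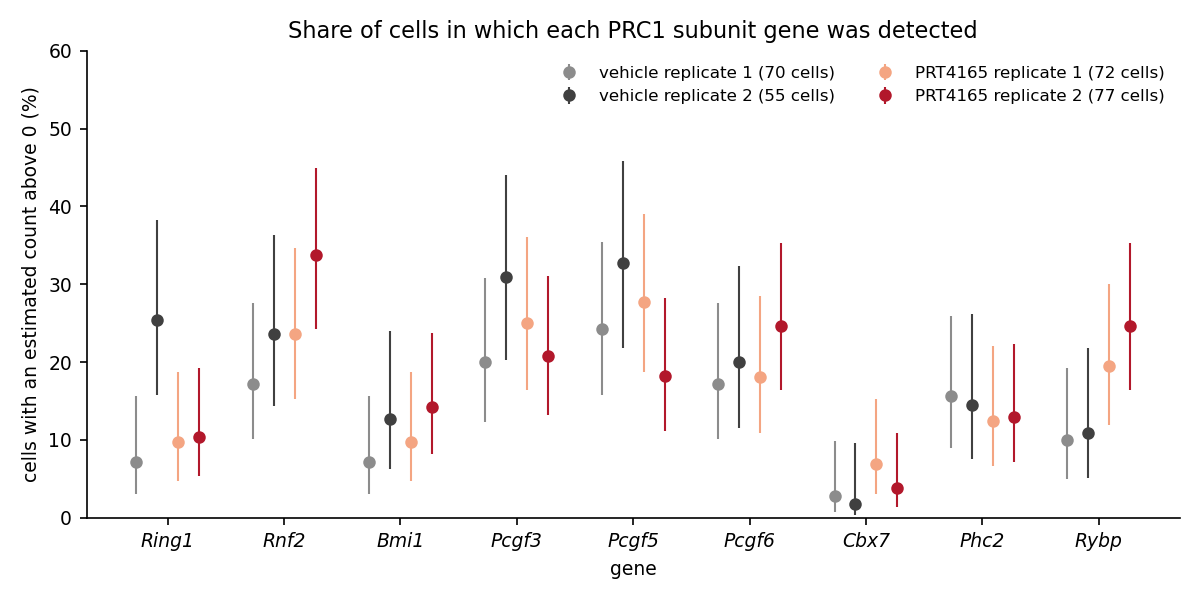
Share of cells (%) with an estimated count above 0 for each gene, 1 point per plate, with 95% Wilson intervals that cover counting error only. Both PRT4165 points lie above both vehicle points for Rybp and Cbx7 and below them for Phc2, and the intervals of neighbouring plates overlap for those 3 genes.

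Such genes were common in the whole table. Among 12408 genes detected in at least 10 cells, 32.4% had both PRT4165 plates above both vehicle plates and 7.16% had both below, beside 2 and 1 of the 9 subunit genes. The difference for Rybp was 11.6 percentage points, from a mean of 10.5% ± 0.643 to 22.1% ± 3.70 (SD, n = 2 plates each), and it was 9.44 points within batch 1 and 13.8 within batch 2. For Cbx7 it was 3.08 points and for Phc2 -2.39 points. By the exact two-sided permutation test over plates, p was 0.333 for each of the 3, the smallest that 2 against 2 plates can give, and 0.667 or 1 for the other 6.

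Depth moved with detection. In 246 cells with enough counts to be thinned to 50000 non-mitochondrial counts each, Rybp was detected in 10.2% and 7.41% of vehicle cells and in 14.8% and 15.3% of PRT4165 cells. Rnf2 was detected in 11.9% and 18.5% of thinned vehicle cells and in 23.0% and 25.0% of thinned PRT4165 cells. In thinned cells Rnf2, Pcgf6 and Rybp were the genes whose plates did not overlap, all higher with PRT4165, and Cbx7 and Phc2 overlapped; the shares over 12395 genes were 24.4% higher and 12.1% lower. Of the subunit genes, only Rybp kept its plates apart under every choice of cells and of detection limit tried. These choices reuse the same plates. The share of all genes that did so under every choice was not taken, so this result has no yardstick.

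The level of each gene was taken as its counts summed over the cells of a plate, in CPM of all counts of the plate, and divided by the length of its longest protein-coding transcript to compare genes. On this scale (mean ± SD over the 4 plates, CPM per kilobase) Pcgf6 stood at 9.62 ± 6.24, Rnf2 at 8.37 ± 3.47, Bmi1 at 6.30 ± 5.24, Pcgf5 at 4.01 ± 3.02 and Rybp at 2.19 ± 0.703. Pcgf3 followed at 1.49 ± 0.936, Phc2 at 0.843 ± 0.471, Ring1 at 0.645 ± 0.437 and Cbx7 at 0.0995 ± 0.0453. Only the last step in this order, from Ring1 to Cbx7, separated neighbours whose plates did not overlap. Every other pair of neighbours overlapped, although Pcgf3 exceeded Phc2 on each of the 4 plates.

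**Figure D2:**
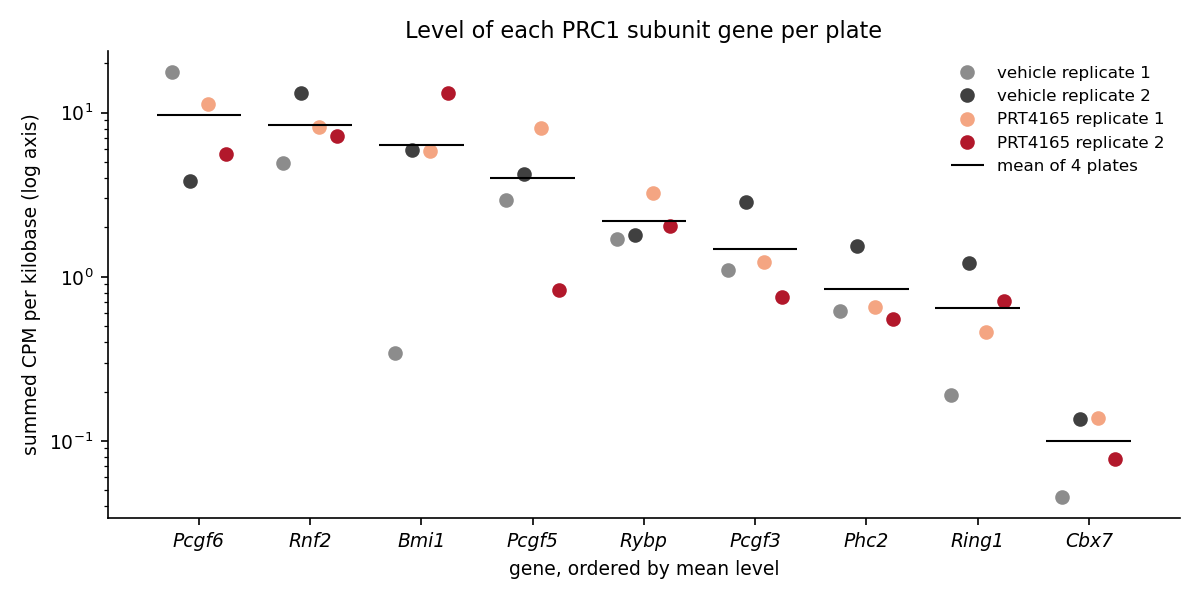
Summed level of each gene in CPM per kilobase (log axis), 1 point per plate, with the mean of the 4 plates as a bar, ordered by that mean. Plates of a gene differ most for Bmi1, from 0.346 to 13.1, while the 4 Cbx7 points, at 0.0458 to 0.138, lie below all points of the other genes.

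Single cells carried much of these levels. Rnf2 stood at 15.9 and 42.2 CPM with vehicle and at 26.1 and 23.1 CPM on the PRT4165 plates, so that the vehicle plates again lay on either side. On those plates 64.1%, 74.5%, 49.6% and 36.9% of its counts came from 1 cell, and on vehicle replicate 2 that cell held 1091 of 1465 counts. With the highest cell of each plate left out, a choice made after seeing the data, Rnf2 stood at 5.71, 10.8, 13.1 and 14.5 CPM. Both PRT4165 plates then lay above both vehicle plates, as they also did for Bmi1, Cbx7 and Rybp, while for Phc2 both lay below. The share of all genes that did so was not taken, so this has no yardstick. Ring1 stood at 0.388 and 2.48 CPM with vehicle and at 0.936 and 1.44 CPM with PRT4165, from 10, 86, 36 and 60 counts in all.

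Bmi1 differed most between plates, at 1.24 and 21.2 CPM with vehicle and at 21.03 and 47.2 CPM with PRT4165. Vehicle replicate 1 stood apart with 32 counts in 5 cells, and vehicle replicate 2 was close to PRT4165 replicate 1. Pcgf5 stood at 18.9 and 27.4 CPM with vehicle and at 51.6 and 5.39 CPM with PRT4165, so that the PRT4165 plates held both the highest and the lowest value. Pcgf6 stood at 38.2 and 8.33 CPM with vehicle and at 24.4 and 12.2 CPM with PRT4165, the reverse arrangement.

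Pcgf3 stood at 8.42 and 22.0 CPM with vehicle and at 9.54 and 5.84 CPM with PRT4165. Phc2 stood at 2.45 and 6.11 CPM with vehicle and at 2.57 and 2.19 CPM with PRT4165. In both, vehicle replicate 2 was the highest plate and the other 3 were close together. Cbx7 stood at 0.155 and 0.461 CPM with vehicle and at 0.468 and 0.264 CPM with PRT4165, from 4, 16, 18 and 11 counts, and all 16 on vehicle replicate 2 came from 1 cell. Rybp stood at 7.69 and 8.07 CPM with vehicle and at 14.5 and 9.16 CPM with PRT4165, the only one of the 9 whose summed levels did not overlap between the treatments, where 15.4% of 12791 genes tested were higher on both PRT4165 plates and 16.3% lower.

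The comparison asked whether the inhibitor altered the transcripts of its own target complex. By edgeR's quasi-likelihood test on the plate sums, 0 of the 9 genes passed an adjusted p of 0.05, and 0 of 12791 genes did (0%), with 630 at an unadjusted p under 0.05, none of them one of the 9. DESeq2 called 220 of 14988 genes that had a p-value and again 0 of the 9, of which Cbx7 was given no adjusted p. The adjusted p by edgeR was 0.997 for each gene.

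The fold changes had wide errors. On the log2 scale, PRT4165 over vehicle, Ring1 was at -0.13 (SE 1.45), Rnf2 at -0.15 (SE 0.72), Cbx7 at 0.32 (SE 1.46), Phc2 at -0.76 (SE 1.13) and Rybp at 0.61 (SE 0.84). Among the PCGF genes, Bmi1 was at 1.78 (SE 1.16), Pcgf3 at -0.91 (SE 0.87), Pcgf5 at 0.31 (SE 0.98) and Pcgf6 at -0.42 (SE 0.93). The median over the 9 genes was -0.13, beside -0.02 over all genes tested, and 4 of 9 were above 0, beside 49.4% of all. Plate sums alone do not tell fewer cells with a transcript from fewer transcripts per cell. The shares of cells are given above. For Rybp the median count in cells with a count was 16 and 18 with vehicle and 17.5 and 7 with PRT4165.

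Bmi1 had the largest fold change of the 9, and its size moved with which plates were used. It was 0.89 without vehicle replicate 1 and 1.02 without PRT4165 replicate 2, while it was 2.29 without PRT4165 replicate 1 and 4.69 without vehicle replicate 2 (unadjusted p 0.0061, adjusted p 0.749 by edgeR). With the replicate number as a block it was 2.63 (unadjusted p 0.0396, adjusted p 0.999 by edgeR). None of these fits passed over all genes.

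**Figure D3:**
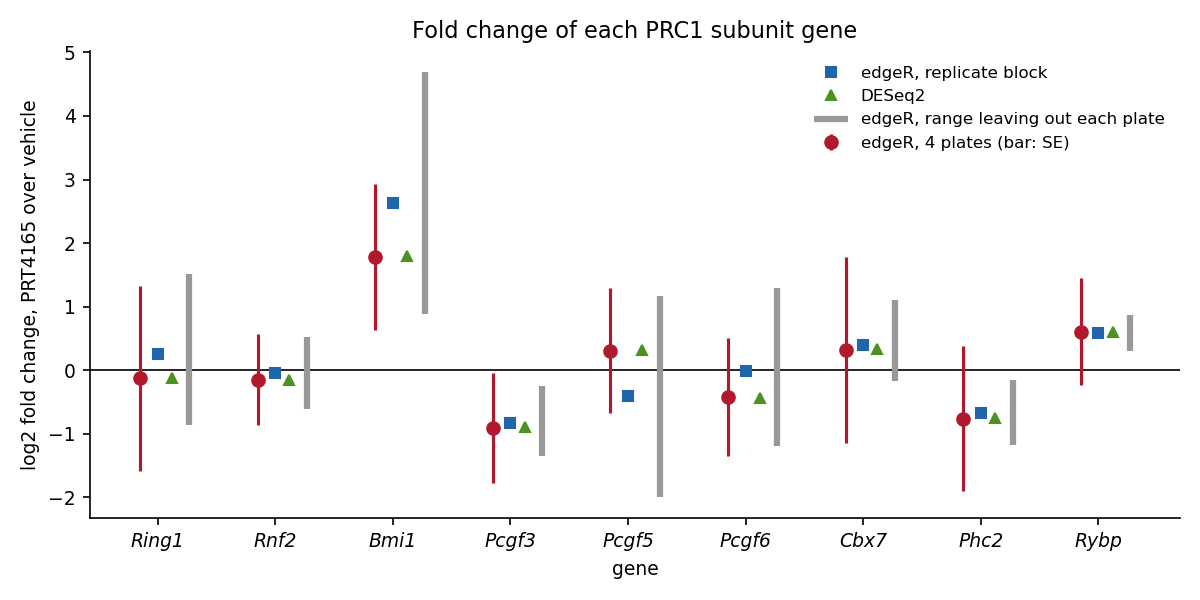
Log2 fold change of each gene, PRT4165 over vehicle, by edgeR on the 4 plates (circle, bar for 1 SE), with the replicate block (square), by DESeq2 (triangle) and as the range over the fits that leave out 1 plate (grey). The range crosses 0 for Ring1, Rnf2, Pcgf5, Pcgf6 and Cbx7, and for Bmi1 it runs from 0.89 to 4.69.

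The catalytic pair was compared next, since RING1A and RING1B can each carry the ligase activity and PRT4165 acts on both. Rnf2 made up 97.6% and 94.5% of the counts of the pair with vehicle and 96.5% and 94.1% with PRT4165. Per kilobase the shares were 96.3%, 91.5%, 94.6% and 91.0% in the same order, so that Rnf2 exceeded Ring1 by 10.2 to 26.0 times on each plate. The highest ratio, on vehicle replicate 1, rested on 10 counts of Ring1. Without the highest cell of each gene on each plate, a choice made after seeing the data, Rnf2 made up 96.1%, 86.2%, 96.4% and 97.6% of the counts. The difference between the treatments in the share of counts was -0.71 percentage points (96.0% ± 2.23 with vehicle, 95.3% ± 1.71 with PRT4165, SD, n = 2 plates each, exact two-sided permutation p = 0.667). Its direction was not stable: it was 2.13 points in thinned cells, 0.867 when vehicle replicate 1 was left out, 0.498 when PRT4165 replicate 2 was, and 5.85 without the highest cell of each gene on each plate, but -4.28 with at most 30% mitochondrial counts.

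In single cells the excess of Rnf2 was smaller than in counts. Of the 274 cells, 86 had at least 1 of the genes: 52 had Rnf2 only, 18 had Ring1 only and 16 had both. At least 1 of the pair was detected in 14 of 70 (20%) and 22 of 55 (40%) vehicle cells and in 20 of 72 (27.8%) and 30 of 77 (38.96%) PRT4165 cells, so the plates of replicate 2 were the higher ones under both treatments. On vehicle replicate 2, 9 cells had Ring1 only and 8 had Rnf2 only. On the other 3 plates Rnf2 alone was the more frequent, in 9 cells against 2, 13 against 3 and 22 against 4.

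Where both were detected, Rnf2 had the higher count in 12 of 16 cells. Of the cells with Ring1, 47.1% also had Rnf2, and of the cells with Rnf2, 23.5% also had Ring1. In thinned cells the pair was found together in 3 cells.

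**Figure D4:**
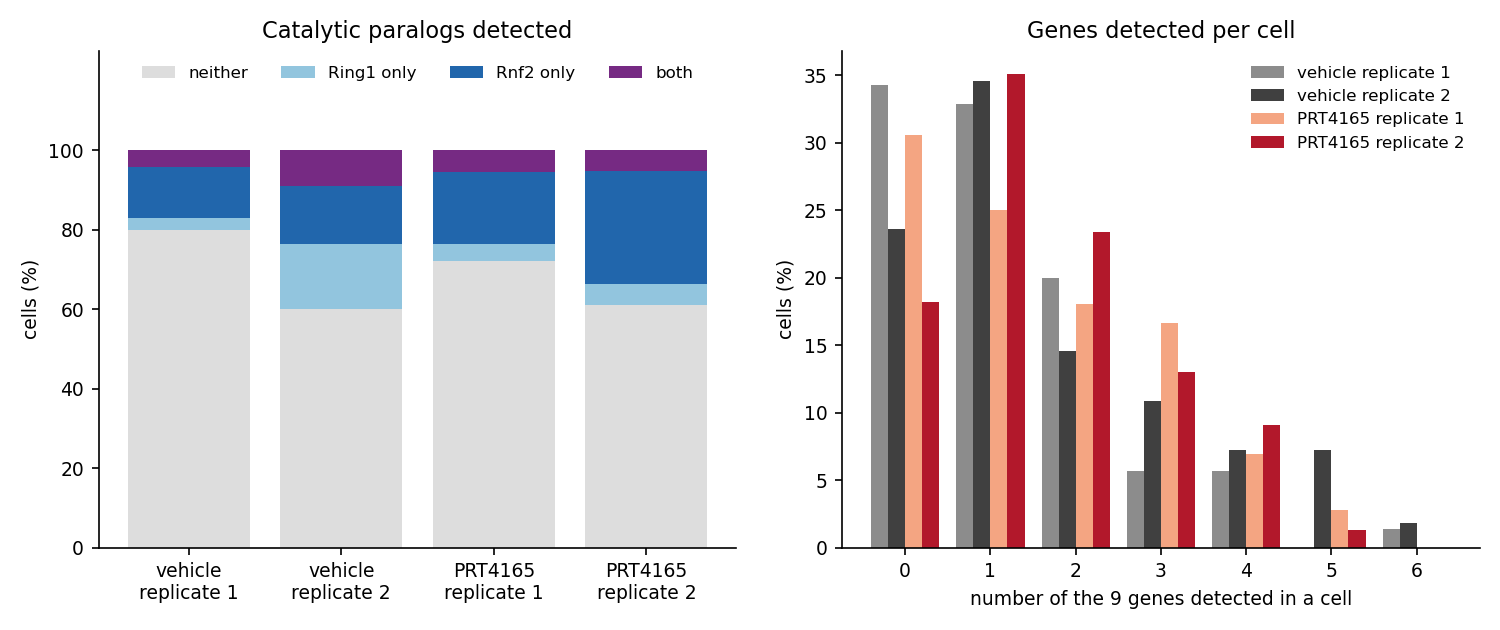
Left, share of cells (%) on each plate in which neither, one or both of Ring1 and Rnf2 were detected; right, share of cells (%) by the number of the 9 genes detected, 1 bar per plate. Neither gene of the pair was detected in 60% to 80% of the cells of a plate, and cells with 5 or 6 of the 9 genes were rare on every plate.

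The PCGF genes were shared out differently on each plate. Counting all 6 PCGF genes per kilobase, the 4 described here with Pcgf1 and Pcgf2, Pcgf6 led on vehicle replicate 1 with 52.7% and on PRT4165 replicate 1 with 35.8%. Bmi1 led on vehicle replicate 2 with 29.8% and on PRT4165 replicate 2 with 51.2%. Without the highest cell of each gene on each plate, a choice made after seeing the data, Pcgf5 led on vehicle replicate 2 with 33.3% and the leading genes of the other 3 plates stayed. By cells the order was another: Pcgf2, the paralog of Bmi1 in canonical complexes, was detected in 97 of 274 cells and Bmi1 in 30. With an estimated count of at least 5, Pcgf2 was found in 32 cells and Bmi1 in 26. The gap thus rested mainly on cells with fewer than 5 counts. In 77 cells no PCGF gene was detected, in 98 cells 1, and in 99 cells at least 2.

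Other members were set beside their paralogs. Of the CBX genes read beside it, Cbx2 was detected in 40 cells, Cbx6 in 20, Cbx8 in 19 and Cbx7 in 11. Phc3 was detected in 55 cells, Phc2 in 38 and Phc1 in 18, and Phc2 held 25.9% to 37.1% per kilobase. Over all plates Rybp was detected in 46 cells and its paralog Yaf2 in 33. By plate these were 7, 6, 14 and 19 cells for Rybp and 9, 4, 11 and 9 for Yaf2. On vehicle replicate 1 Yaf2 was thus the more frequent. Rybp held less of their summed level per kilobase on each plate, at 13.0% to 37.2%.

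Detection of several subunits in the same cell followed. Of the 274 cells, 73 had none of the 9 genes, 87 had 1, 53 had 2, 32 had 3, 20 had 4, 7 had 5 and 2 had 6. The mean number per cell with vehicle was 1.21 on the plate of replicate 1 and 1.73 on that of replicate 2, and with PRT4165 it was 1.53 and 1.64. The PRT4165 plates thus lay between the vehicle plates, with a difference of 0.11 genes (exact two-sided permutation p = 1, n = 2 plates each), and the sign differed between the batches, at 0.313 in batch 1 and -0.0909 in batch 2.

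The number per cell moved with depth. Over the 92 cells of lowest depth the mean was 0.989 genes, over the middle 91 it was 1.77 and over the 91 of highest depth 1.80. Spearman's rho over the 274 cells was 0.31 with total counts and 0.54 with the number of genes detected, a description of cells that share plates and depth. After thinning, the mean was 0.881 and 1.13 with vehicle and 1.30 and 1.03 with PRT4165, and rho with the number of genes detected in the thinned cell was 0.33 over 246 cells.

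Of the 36 pairs of genes, the median was 10 cells with both. Rnf2 and Pcgf5 met most often, in 27 cells, with 6, 8, 7 and 6 cells on the 4 plates. Rnf2 and Pcgf3 met in 25 cells, with 4, 6, 7 and 8. Both pairs join the ligase with the PCGF subunit of a variant complex, and both occurred on each of the 4 plates. However, Pcgf5, Rnf2 and Pcgf3 were the most often detected of the genes paired, in 69, 68 and 65 cells. Pcgf3 and Pcgf5, a pair without a catalytic gene, came next with 18 cells. Whether any pair met more often than the detection of its genes and the depth of the cells would give was not tested. Rnf2 was detected in 38.5% of the cells with Pcgf3 and in 20.6% of those without. It was detected in 39.1% of the cells with Pcgf5 and in 20% of those without. These shares were not matched for depth.

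Correlation across cells was weak throughout. Pearson's r of log2(CPM + 1), centred within each plate, over 274 cells that share plates and depth, was highest for Rnf2 and Pcgf3 at 0.26, followed by Ring1 and Rnf2 at 0.17 and Rnf2 and Pcgf5 at 0.17. The median over the 36 pairs was 0.04 and the lowest was -0.09, for Pcgf5 and Cbx7. In counts this sparse such values are a description only.

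A catalytic gene with any PCGF gene was detected in 72 cells, at 15.7% and 29.1% of vehicle cells and at 25.0% and 35.1% of PRT4165 cells. The treatments overlapped.

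Across the cell states of the plates, the genes were not evenly detected. Clustering on 2000 variable genes, with the 9 genes left out, gave 8 clusters, 5 of which carried enough of the listed markers to be named: B differentiated interfollicular-like (Krt1, Krt10, Krtdap), D bulge-like (Krt15, Postn), E upper follicle and infundibulum-like (Krt79, Cst6, Defb6), F cycling-like (Mki67, Top2a, Stmn1) and H sebaceous gland-like (Scd1, Mgst1, Elovl6, Plin2). A, which had Krt5 among its leading genes, C and G remained unnamed. In D all listed bulge markers were raised over the other cells, Cd34 and Ccn2 in no other cluster. The paper uses Postn as a marker of the infundibulum, and it was also raised in A. Krt15 was also raised in A, F and G.

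The mean number of the 9 genes per cell ran from 0.387 in C (31 cells) to 2.74 in H (23 cells). It was 1.28 in A, 1.33 in B, 1.23 in D, 2 in E, 2.04 in F and 2.08 in G. C was also the shallowest, with a median of 1594 genes per cell beside 2792 to 4806 in the others. The only listed marker raised in C over the other cells was the endothelial Pecam1, and no keratinocyte marker was. What cells C holds was not tested. In thinned cells the means ran from 0.368 in C to 1.62 in F, with 1.57 in H, so the distance between the extremes was 1.25 genes rather than 2.35. Plates differed within H, at 1 (2 cells), 3.67 (3 cells), 2.83 (6 cells) and 2.75 (12 cells) in the same order of plates, whereas each of the 4 plates of C stayed at or below 0.556.

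Pcgf3 had the highest share of the 9 genes in any cluster. It was detected in 14 of 23 cells of H (60.9%, 95% Wilson interval 40.8% to 77.8%) and 15 of 29 cells of E (51.7%, 34.4% to 68.6%), and in 5 of 54 cells of B (9.26%). Within the plates the share ran from 41.7% to 100% in H and from 44.4% to 62.5% in E. In thinned cells it was found in 8 of 23 cells of H and 11 of 29 of E, and the highest share was then that of Rnf2, in 9 of 21 cells of F.

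Pcgf6, by contrast, was detected in 1 of 29 cells of E (3.45%), in 16 of 54 cells of B (29.6%) and in 10 of 24 of F (41.7%). Within the plates its share in F ran from 0% to 60%, and 7 of 21 thinned cells of F had it. Pcgf5 was most frequent in E (13 of 29, 44.8%), H (39.1%) and D (35.5%). Its share in E ran from 0% to 66.7% within the plates, and 9 of 29 thinned cells of E had it. Rnf2 was detected in 45.8% of F, 43.5% of H and 41.4% of E, beside 12.9% of D and 17.2% of A. Ring1 was most frequent in H, in 9 of 23 cells (39.1%), and was found in 1 of 24 cells of F. Its share in H ran from 0% to 66.7% within the plates, and only 3 of 23 thinned cells of H had it. Rybp was most frequent in G (33.3%), and Bmi1, Phc2 and Cbx7 did not exceed 21.7%, 20.8% and 8.70% in any cluster. No test was made between clusters.

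**Figure D5:**
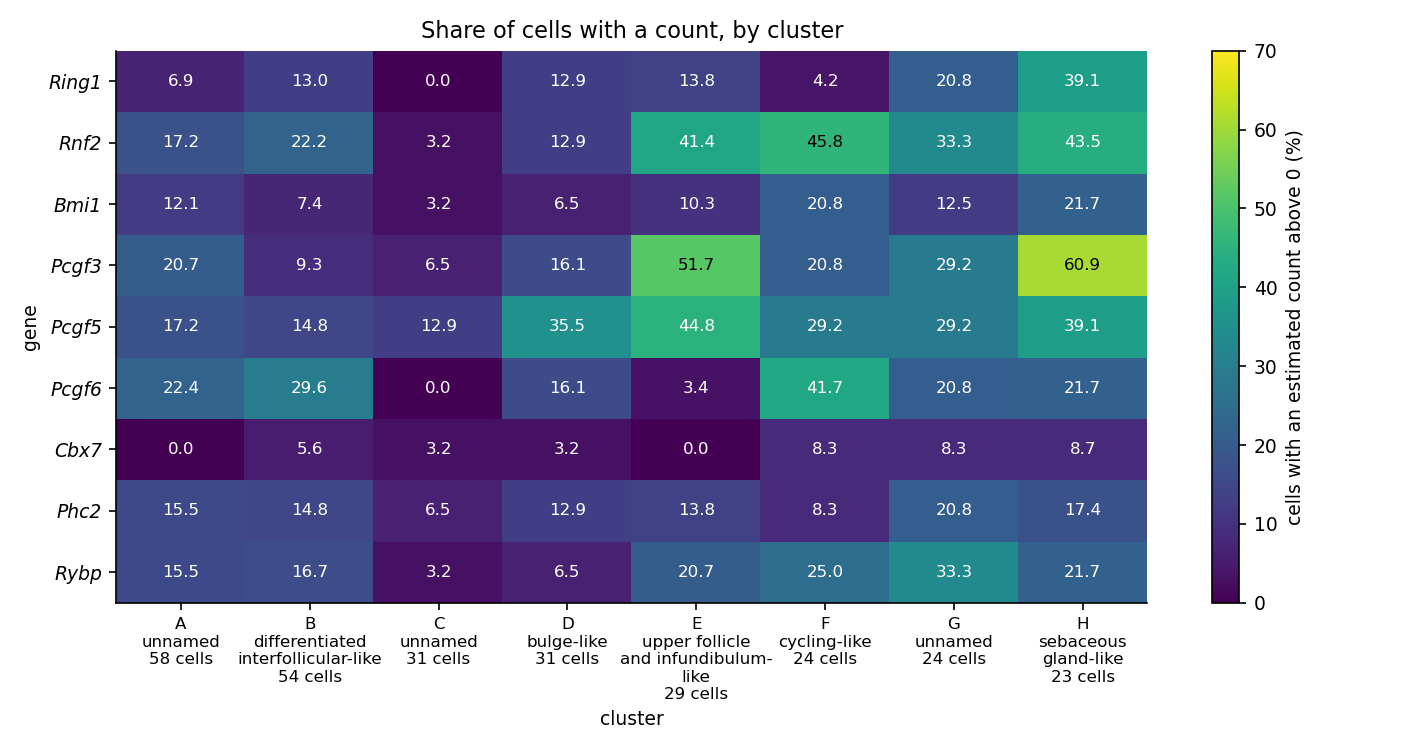
Share of cells (%) with an estimated count above 0, by gene (rows) and cluster (columns, with the number of cells), all plates together. Pcgf3 is highest in H and E, Pcgf6 is at 3.4% in E, and C is low in every row.

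The genes most like the catalytic pair over cells were named by rule among 5125 genes detected in at least 25% of cells. For Rnf2 they were Khdc4 (r = 0.31), Atp6v1c2 (0.29) and Serinc3 (0.28), and for Ring1 they were Tmcc3 (0.29), Btaf1 (0.26) and Cbs (0.24), with r as above over 274 cells. These are the highest of many values and all are low.

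The rest of the pathway was read in 40 further genes: 10 of canonical PRC1, 21 of variant PRC1 and 9 of the enzymes that remove ubiquitin from H2A or assist them. All 40 were in the table and 37 passed the low-count filter. By edgeR 0 of the 37 were called in either direction, with 3 at an unadjusted p under 0.05, and the median log2 fold change was -0.07, with 17 of 37 above 0. It was 0.28 for the canonical genes, 0.04 for the variant genes and -0.28 for the deubiquitinase genes, of which 2 of 8 tested were above 0.

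The 3 of smallest p were Kdm2b, Scmh1 and Scml2. Kdm2b, whose protein brings a variant complex to CpG islands, stood at 16.5 and 4.66 CPM with vehicle and at 85.0 and 27.7 CPM with PRT4165 (log2 fold change 2.34, SE 0.92, unadjusted p 0.0341, adjusted p 0.988 by edgeR). Its plates did not overlap, with both PRT4165 plates higher, as for 15.4% of all genes tested. With the highest cell of each plate left out they stood at 7.31 and 2.83 CPM with vehicle and at 30.2 and 22.4 CPM with PRT4165. Kdm2b was named for its small p on the same plate sums, so these values are no separate support. Scmh1, of the canonical complexes, was at 2.68 (SE 1.08, adjusted p 0.988 by edgeR), with 72.8% of its counts on PRT4165 replicate 1 from 1 cell. Scml2 was at -3.75 (SE 1.58, adjusted p 0.997 by edgeR), with 99.2% of its counts on vehicle replicate 1 from 1 cell.

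The 3 of highest level per kilobase were Skp1, Csnk2b and Usp16, at 353.5, 76.2 and 33.2 CPM per kilobase. Skp1 and Csnk2b encode partners that serve many complexes besides PRC1, and their log2 fold changes were 0.42 (SE 0.43) and -0.18 (SE 0.57). Usp16, which encodes an H2A deubiquitinase, stood at 149.3 and 132.9 CPM with vehicle and at 81.1 and 62.3 CPM with PRT4165 (log2 fold change -0.96, SE 0.52, unadjusted p 0.1003, adjusted p 0.997 by edgeR). Its plates did not overlap, with both PRT4165 plates lower, as for 16.3% of all genes tested. However, 58.2% of its counts on vehicle replicate 1 came from 1 cell. Without the highest cell of each plate the treatments did overlap, at 62.4 and 95.4 CPM beside 67.8 and 52.1 CPM.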

How the data were processed

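Sorted single cells were sequenced by Smart-seq2 with 75-base single-end reads and without molecular identifiers, so intervals cover counting error only. The authors mapped the reads to the Ensembl mouse transcriptome with Salmon 0.13.1 and deposited the estimated counts of every cell by gene symbol in a single unscaled table, in which 18.3% of values above 0 were not whole. All 289 columns were matched to samples by title.

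Cells with at least 1000 genes and at most 50% mitochondrial counts were kept, as in the study. Plate sums were rounded, passed through filterByExpr, scaled by TMM and compared by the quasi-likelihood test of edgeR 4.0.16 (R 4.3.3), calling genes at a Benjamini-Hochberg adjusted p under 0.05; DESeq2 1.42.0 was an alternative. SEs are the log2 fold change divided by the square root of F. Each well held 1 sorted cell, and no doublet caller was run. Where nothing says that plates came from separate animals, p-values measure only the spread between plates. The labels give the replicate number as a batch shared by the treatments, so the numbers pair the plates. The correlation of the deviations of the replicate 1 plates was 0.12 over 4217 genes.

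Clusters used log2(CPM + 1) scaled within batches, 15 components, 15 neighbours and the Leiden algorithm (leidenalg 0.10.2) at resolution 1. A cluster was named from listed markers. Transcript lengths and positions came from GENCODE M21; Skp1, listed there as Skp1a, was matched through RefSeq synonyms. The edgeR fit was also run on simulated counts with known changes, as a check of the code. How large a change the test on these plates could find is not given here. The common biological coefficient of variation of the main edgeR fit was 76.9%. The 9 genes are described whatever their values; of the further list, the 3 of smallest p and the 3 of highest CPM per kilobase are named. The genes and lists were chosen with earlier results of these data known. A gene of the further list is not reported here.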

Additional observations from a re-analysis of the deposited data

How the results depend on the processing

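Among these genes no call was made: 0 of the 9 and 0 of the further list passed under edgeR or DESeq2. For edgeR this held with or without the low-count filter, in all cells, with at most 30% mitochondrial counts, in thinned cells and with the replicate block. In each of these settings edgeR called 0 genes of the whole table, so its 0 calls are not particular to these genes. Over all genes the calls did depend on the method, as DESeq2 called 220 of 14988. Directions depended on the processing too. With at most 30% mitochondrial counts the log2 fold change turned to 0.20 for Ring1, -0.091 for Pcgf5, 1.16 for Pcgf6 and -0.38 for Rybp, and the difference in share of cells to 1.04 percentage points for Pcgf3. In all cells Cbx7 turned to -2.03. The paired fit with the replicate block gave 0.26 for Ring1 and -0.41 for Pcgf5 and changed no call. The cause was not tested.

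Leaving out each plate in turn gave log2 fold changes of -0.87 to 1.51 for Ring1, -0.605 to 0.52 for Rnf2, -1.99 to 1.16 for Pcgf5, -1.19 to 1.30 for Pcgf6 and -0.16 to 1.10 for Cbx7, and differences in share of cells of -15.4 to 2.91 points for Ring1, -0.723 to 4.86 for Bmi1, -8.02 to 2.89 for Pcgf3 and -0.516 to 6.10 for Pcgf6. The number of genes whose shares did not overlap ran from 3 to 8 (6 without vehicle replicate 1, 8 without vehicle replicate 2, 7 without PRT4165 replicate 1), as fewer plates overlap less. The matching share over all genes was not taken for these sets of plates, so these counts have no yardstick. The difference in the Rnf2 share ran from -2.29 to 0.867 points, and that in genes per cell from -0.145 to 0.368. In thinned cells the Rnf2 share differed by 2.13 points, without the highest cell of each gene on each plate (chosen after seeing the data) by 5.85 points, and the distance between extreme clusters was 1.25 genes. Cbx7 was too sparse to be tested in thinned cells and with at most 30% mitochondrial counts, and Ring1 in thinned cells. DESeq2 gave Cbx7 no adjusted p. In most cells fewer than 2 of the 9 genes were detected.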
